A study of Homo sapiens with 12 samples.

Results

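The interleukin 6 family of signalling molecules was followed through 8 genes: the ligands IL6, LIF, IL11 and OSM, and the receptor chains IL6R, LIFR, OSMR and IL6ST. All probe sets annotated to these genes were taken, which gave 24 of the 54675 probe sets on the array (8 of the 19775 genes that had a probe set of their own), and 0 of them were also annotated to another gene. There were 6 ligand probe sets and 18 receptor probe sets. A filter on low values let 18 of the 24 into the tests, and the other 6 (3 of LIFR, 2 of IL6ST and 1 of OSM) are given as ranges. A member that passes such a filter through the group where it is high had to differ, so counts over the 18 describe the tested members.

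The cells were 3 human multiple myeloma lines with a stable green fluorescent protein (GFP) label. MM.1S responds to dexamethasone, MM.1R was derived from it and resists dexamethasone, and INA-6 depends on interleukin 6 for growth. Before RNA was taken, each line spent 24 hours alone or together with unlabelled cells of HS-5, a stromal line from human bone marrow, and cells positive for GFP were then sorted out. Each of the 6 groups (MM.1S alone, MM.1S coculture, MM.1R alone, MM.1R coculture, INA-6 alone and INA-6 coculture) had 2 Affymetrix U133 Plus 2.0 arrays, called technical replicates in the series text. Each group was therefore a single labelled line, and HS-5 stood for stroma throughout. Whether interleukin 6 was added to the medium of INA-6 cells grown alone is not given in the sources used here.

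Interleukin 6 binds IL6R, a chain that does not signal by itself, and the pair recruits IL6ST, the signalling chain that the whole family shares. Interleukin 11 uses its own alpha chain with IL6ST, leukaemia inhibitory factor (LIF) joins LIFR to IL6ST, and oncostatin M (OSM) joins IL6ST to OSMR or LIFR. The shared chain activates Janus kinases, STAT3 and the RAS-MAPK route, and in bone marrow stromal cells are a known source of the interleukin 6 on which myeloma cells can depend.

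Some features of all arrays bear on each value below. Values are intensities on a linear scale, with array medians between 19.78 and 24.09, and the duplicates of INA-6 alone correlated less with each other (r = 0.821 over tested probe sets) than those of the other groups (0.929 to 0.982). Signal at the 3′ end of ACTB over that at its 5′ end, a ratio that is higher where transcripts are shortened, moved with coculture and not in the same direction in each line. MM.1S had means of 22.4 alone and 5.10 in coculture, MM.1R had 31.4 and 5.21, and INA-6 had 5.51 and 32.0. The part of this ratio in the results was not tested. Of 9 tested plasma cell markers 0 passed the common test of coculture, and in each group 0 of the 9 lay below the array median on both arrays. With 1.48% of all genes called higher, 0 calls among 9 does not show that they were unchanged. Their median change was 1.08 in MM.1S, 0.56 in MM.1R and -0.39 in INA-6, against 0.11, 0.09 and 0.47 for all genes. Their summed intensity per array was 11201.9 and 11544.5 in MM.1S alone against 22603 and 23006 after coculture. In MM.1R it was 16173 and 16621 against 22751 and 22820, and in INA-6 17657 and 17724 against 15552 and 15841. Of 31 tested stromal markers 11 passed the common test, all higher after coculture, against 1.48% of all genes tested that were higher. The common change lay above 0 in 26 of the 31, against 62.1% of all genes. It lay below 0 in COL1A1, TAGLN, ACTA2, MYL9 and IGFBP7. Bright markers weigh most in a sum, such as COL6A1 with means of 25.3 in MM.1S alone and 3217 in MM.1S coculture. The summed intensity of the 31 per array was 2178 and 2267 in MM.1S alone against 14634 and 14818 after coculture. In MM.1R it was 2523 and 2563 against 28097 and 28723, and in INA-6 3098 and 3690 against 13040 and 13080. In cells grown alone, 10, 10 and 9 of these markers lay below the array median on both arrays of MM.1S, MM.1R and INA-6. On no array did any of the 31 stand at 1, the value that 3.02% to 3.63% of all probe sets on an array had. In such bulk samples, fewer cells of a type and less RNA per cell cannot be told apart.

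The promoters of genes that rose together are shown before their values. The RefSeq table of promoters (GRCh38.p14) held 8 entries for 6 of the 8 genes, and LIF and OSM were not matched. The 250 bases before each start were searched on both strands for 5 short motifs, with any overlap between motifs allowed. These were AP-1 (TGANTCA, found in 6.57% of 35116 promoters), CRE (TGACGTCA, in 1.65%), the NF-kB consensus (in 5.67%), STAT (TTCNNNGAA, in 6.57%) and C/EBP (TTGCNNAA, in 9.05%). The 3 printed here belong to IL6, IL11 and OSMR, each of which rose in all 3 lines. Capitals mark the matches, and each is written 5′ to 3′ along the gene's strand.
IL6, chr7:22726950-22727199, plus strand: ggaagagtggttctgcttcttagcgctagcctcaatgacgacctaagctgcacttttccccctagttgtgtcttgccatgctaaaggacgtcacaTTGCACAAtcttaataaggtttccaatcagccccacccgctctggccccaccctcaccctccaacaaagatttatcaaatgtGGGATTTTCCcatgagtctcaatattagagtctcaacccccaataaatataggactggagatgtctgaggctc
IL11, chr19:55370464-55370713, minus strand: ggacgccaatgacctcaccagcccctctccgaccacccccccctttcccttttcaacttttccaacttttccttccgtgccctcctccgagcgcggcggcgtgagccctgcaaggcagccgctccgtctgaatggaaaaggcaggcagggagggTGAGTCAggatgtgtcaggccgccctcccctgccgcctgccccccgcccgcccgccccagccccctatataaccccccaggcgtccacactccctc
OSMR, chr5:38845762-38846011, plus strand: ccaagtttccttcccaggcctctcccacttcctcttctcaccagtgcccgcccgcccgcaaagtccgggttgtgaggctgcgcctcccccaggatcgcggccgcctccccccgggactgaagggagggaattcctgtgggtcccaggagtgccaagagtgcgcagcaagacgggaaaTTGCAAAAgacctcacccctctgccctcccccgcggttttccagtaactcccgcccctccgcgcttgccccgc
In the IL6 promoter the C/EBP match TTGCACAA began 155 bases before the start and the NF-kB match GGGATTTTCC began 73 bases before it. The IL11 promoter held the AP-1 match TGAGTCA 96 bases before the start, and the OSMR promoter held the C/EBP match TTGCAAAA 73 bases before it. These 3 promoters shared no motif that all of them held. The IL6R and IL6ST promoters held 0 matches, and of the 3 LIFR promoters 1 held a STAT match and 1 a STAT and a C/EBP match. A match is a string of letters and was not tested as a binding site.

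IL6 was the member with the largest change. Its probe set 205207_at read 5.69 and 27.02 in MM.1S alone against 2596 and 2568 after coculture, 24.22 and 25.75 in MM.1R alone against 5115 and 5134, and 35.64 and 100.56 in INA-6 alone against 1621 and 1575. The groups alone and in coculture did not overlap in any line. After coculture the order was MM.1R, then MM.1S, then INA-6, with no overlap between neighbours. The share of all probe sets whose groups lay apart in such ways was not counted, for IL6 or for the members below. Of all tested probe sets, 5.47% rose at least 2-fold in each line. The change on the log2(value + 5) scale common to the lines was 6.39 ± 0.61 (SE, 3 lines, limma adjusted p = 0.0103), and this call held under all 21 alternatives, with changes from 5.92 to 7.27. Within the lines the changes were 7.13 ± 0.54 in MM.1S (limma adjusted p = 8.19e-05), 7.42 ± 0.54 in MM.1R (9.56e-05) and 4.61 ± 0.54 in INA-6 (0.000257). The p-values within a line, and between lines, measure only the spread between duplicate arrays, which is technical.

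LIF, a ligand for LIFR, was dim in cells grown alone. Probe set 205266_at read 58.13 and 29.76 in MM.1S alone, 6.62 and 32.30 in MM.1R alone, and 19.70 and 5.87 in INA-6 alone. After coculture it read 276.99 and 262.87, 720.80 and 690.03, and 259.01 and 213.31 in the same lines. Each coculture array lay above every array of cells grown alone. The common change was 3.84 ± 0.54 (limma adjusted p = 0.0347), and it did not pass without INA-6 alone replicate 2 (adjusted p = 0.0534), after quantile normalization (0.0599) or with a pseudocount of 16 (0.0501). In MM.1S the change of 2.55 ± 0.58 (adjusted p = 0.0112) did not pass without MM.1S alone replicate 2 (0.0712) or without either MM.1S coculture array (0.0634 and 0.0582). The changes of 5.09 ± 0.58 in MM.1R and 3.87 ± 0.58 in INA-6 passed under every alternative.

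IL11, which signals through IL6ST with its own alpha chain, had 2 tested probe sets. The brighter one, 206924_at, read 17.63 and 10.68 in MM.1S alone against 273.30 and 267.29 after coculture, 5.35 and 11.54 in MM.1R alone against 703.21 and 705.15, and 14.89 and 9.67 in INA-6 alone against 180.83 and 166.07. No array of cells grown alone reached any coculture array. It rose by 4.34 ± 0.54 over the lines (limma adjusted p = 0.0233), and by 3.87 ± 0.29 in MM.1S, 5.76 ± 0.29 in MM.1R and 3.38 ± 0.29 in INA-6, where all 3 calls held under every alternative. The dimmer one, 206926_s_at, read 39.42 and 43.59 in MM.1R coculture, and between 1 and 22.29 on the other arrays. Its change of 2.84 ± 0.56 in MM.1R passed (adjusted p = 0.0119) but did not without any one of the 4 MM.1R arrays (0.0647 to 0.0751).

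OSM, the ligand shared by OSMR and LIFR, did not rise. Probe set 230170_at read 60.93 and 51.51 in MM.1S alone against 40.24 and 32.30 after coculture, 30.21 and 34.64 in MM.1R alone against 36.55 and 38.47, and 75.79 and 51.18 in INA-6 alone against 36.60 and 32.84. The values after coculture were lower in MM.1S and INA-6 and slightly higher in MM.1R. The common change was -0.38 ± 0.40 (limma adjusted p = 0.611). In INA-6 it fell by 0.76 ± 0.23 (adjusted p = 0.0240), a call that did not hold without INA-6 coculture replicate 1 (0.0713) or 2 (0.122). The other OSM probe set, 214637_at, was not tested and lay between 1 and 47.45.

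**Figure D1:**
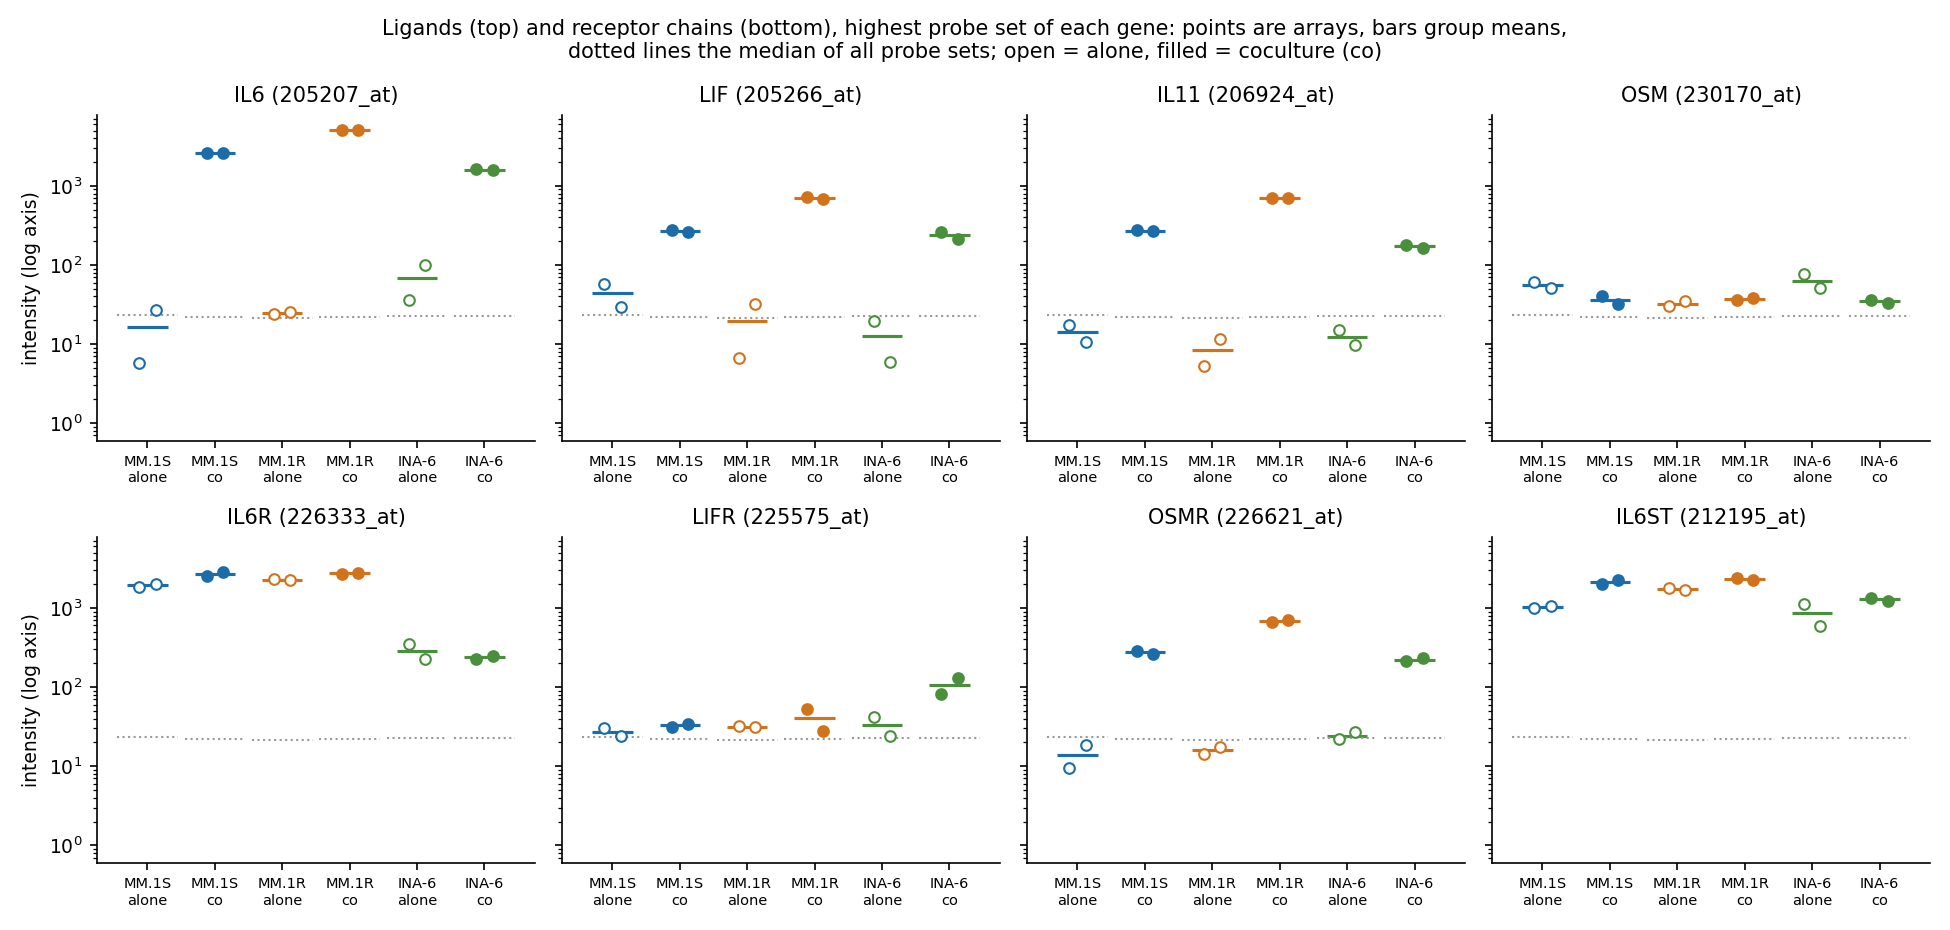
Intensity on each of the 12 arrays, on a log axis, for the brightest probe set of each of the 8 genes, with 1 point per array and the 6 groups along the horizontal axis. IL6, LIF, IL11 and OSMR lie higher in all coculture arrays than in any array of cells grown alone (for IL6, 1575 to 5134 against 5.69 to 100.56), and IL6R is lowest in INA-6. The share of all probe sets that lay apart in this way was not counted.

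OSMR, the chain that OSM pairs with IL6ST, moved with the 3 ligands. Its brightest probe set, 226621_at, read 9.48 and 18.51 in MM.1S alone against 283.22 and 264.16 after coculture, 14.06 and 17.72 in MM.1R alone against 669.80 and 699.91, and 21.92 and 26.86 in INA-6 alone against 214.33 and 231.08. Again no array of cells grown alone reached a coculture array. The common change was 3.97 ± 0.49 (limma adjusted p = 0.0233), and within the lines it was 3.92 ± 0.25 in MM.1S, 5.05 ± 0.25 in MM.1R and 2.96 ± 0.25 in INA-6. The 3 calls within lines passed under every alternative.

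The other OSMR probe sets did not follow 226621_at in each line. In MM.1R, 1554008_at went from 5.91 and 8.33 alone to 68.70 and 58.94 after coculture, a rise of 2.51 ± 0.45 (limma adjusted p = 0.00773) that did not pass without MM.1R alone replicate 1 (0.0577) or MM.1R coculture replicate 1 (0.0628). In INA-6, 205729_at went from 68.31 and 59.95 alone to 23.57 and 21.97, a fall of -1.31 ± 0.40 (adjusted p = 0.0272) that did not pass without any one of the 4 INA-6 arrays (0.0612 to 0.109). The direction of OSMR in INA-6 therefore depended on the probe set, with 226621_at the brighter one after coculture.

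LIFR, the chain for LIF and for OSM, stayed dim. Probe set 225575_at read 30.10 and 24.41 in MM.1S alone against 31.59 and 33.94 after coculture, 32.13 and 31.28 in MM.1R alone against 53.50 and 27.94, and 42.42 and 24.19 in INA-6 alone against 81.76 and 130.78. The INA-6 coculture arrays were the highest, and the groups of MM.1R overlapped. In INA-6 it rose by 1.54 ± 0.35 (limma adjusted p = 0.00758), a call that did not hold without INA-6 coculture replicate 2 (change 1.22, adjusted p = 0.0622). Probe set 225571_at rose there by 1.30 ± 0.30 (adjusted p = 0.00791), from 12.49 and 6.19 to 30.30 and 28.65, under every alternative. The 3 LIFR probe sets that were not tested lay between 1 and 21.79.

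IL6R, the chain that binds interleukin 6, separated the lines more than it separated the culture conditions. Probe set 226333_at read 1827 and 2023 in MM.1S alone against 2561 and 2847 after coculture, 2303 and 2239 in MM.1R alone against 2677 and 2791, and 346.58 and 224.96 in INA-6 alone against 228.68 and 245.61. Every INA-6 array lay below every array of the MM.1 lines, and coculture changed it by 0.49 ± 0.23, 0.27 ± 0.23 and -0.23 ± 0.23 in MM.1S, MM.1R and INA-6, none of which passed. The common change of 0.17 turned to -0.35 after quantile normalization, and neither passed.

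Probe set 205945_at of IL6R read 643.07 and 725.67 in MM.1S alone against 2394 and 2415 after coculture, 1548 and 1465 in MM.1R alone against 2502 and 2349, and 120.73 and 105.45 in INA-6 alone against 172.23 and 236.45. The 2 MM.1 lines overlapped after coculture but not before it. The rise in MM.1S of 1.81 ± 0.20 (limma adjusted p = 0.000389) passed under every alternative, with changes from 1.53 to 1.89. In MM.1R the change of 0.69 ± 0.20 did not pass (adjusted p = 0.0608). In INA-6 the change of 0.81 ± 0.20 (adjusted p = 0.0112) did not pass without INA-6 coculture replicate 2 (0.59, adjusted p = 0.0958), and quantile normalization left -0.0045 (adjusted p = 0.986). The dim probe set 217489_s_at lay between 1.26 and 30.16, with changes of 1.19 ± 0.32 in MM.1S, 1.24 ± 0.32 in MM.1R and -1.17 ± 0.32 in INA-6. Each of these passed, but each was lost when certain arrays were left out: in MM.1S without alone replicate 1 or either coculture array (adjusted p 0.0831 to 0.143), in INA-6 without alone replicate 2 or either coculture array (0.0543 to 0.0964) or with a pseudocount of 16 (0.0654), and in MM.1R under 14 of 19 alternatives (up to 0.249).

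IL6ST, the shared signalling chain, was measured by 7 probe sets that did not move together. The brightest, 212195_at, read 985.40 and 1072 in MM.1S alone against 1988 and 2228 after coculture, 1762 and 1703 in MM.1R alone against 2407 and 2226, and 1130 and 586.04 in INA-6 alone against 1342 and 1233. It was higher after coculture in each line, but the common change of 0.70 ± 0.38 did not pass (limma adjusted p = 0.353). The rise in MM.1S of 1.03 ± 0.29 (adjusted p = 0.0279) was lost without any one of the 4 MM.1S arrays (0.0775 to 0.147).

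A second bright IL6ST probe set, 212196_at, went the other way in the MM.1 lines. It read 588.53 and 528.23 in MM.1S alone against 208.87 and 221.31 after coculture, and 391.08 and 441.89 in MM.1R alone against 249.61 and 244.41. The groups did not overlap, but neither the change of -1.35 ± 0.48 in MM.1S (limma adjusted p = 0.0676) nor that of -0.74 ± 0.48 in MM.1R (0.410) passed. In INA-6, 211000_s_at rose from 61.70 and 17.47 alone to 164.15 and 213.22, a change of 2.31 ± 0.46 (adjusted p = 0.00401) that passed under every alternative. Probe set 204863_s_at read 433.59 to 881.10 over all 12 arrays with a common change of -0.17 (limma adjusted p = 0.829). In MM.1R it went from 881.10 and 849.56 alone to 550.34 and 546.74, a change of -0.65 ± 0.23 that did not pass (limma adjusted p = 0.103). Its changes in MM.1S and INA-6 were -0.06 and 0.20. The remaining 3 probe sets were dim, 234967_at between 1.13 and 30.31, 204864_s_at between 5.53 and 16.99, and 234474_x_at between 1.15 and 18.53. Up or down for IL6ST thus depended on which probe set was read, and where each lies along the transcript is not given in the sources used here.

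**Figure D2:**
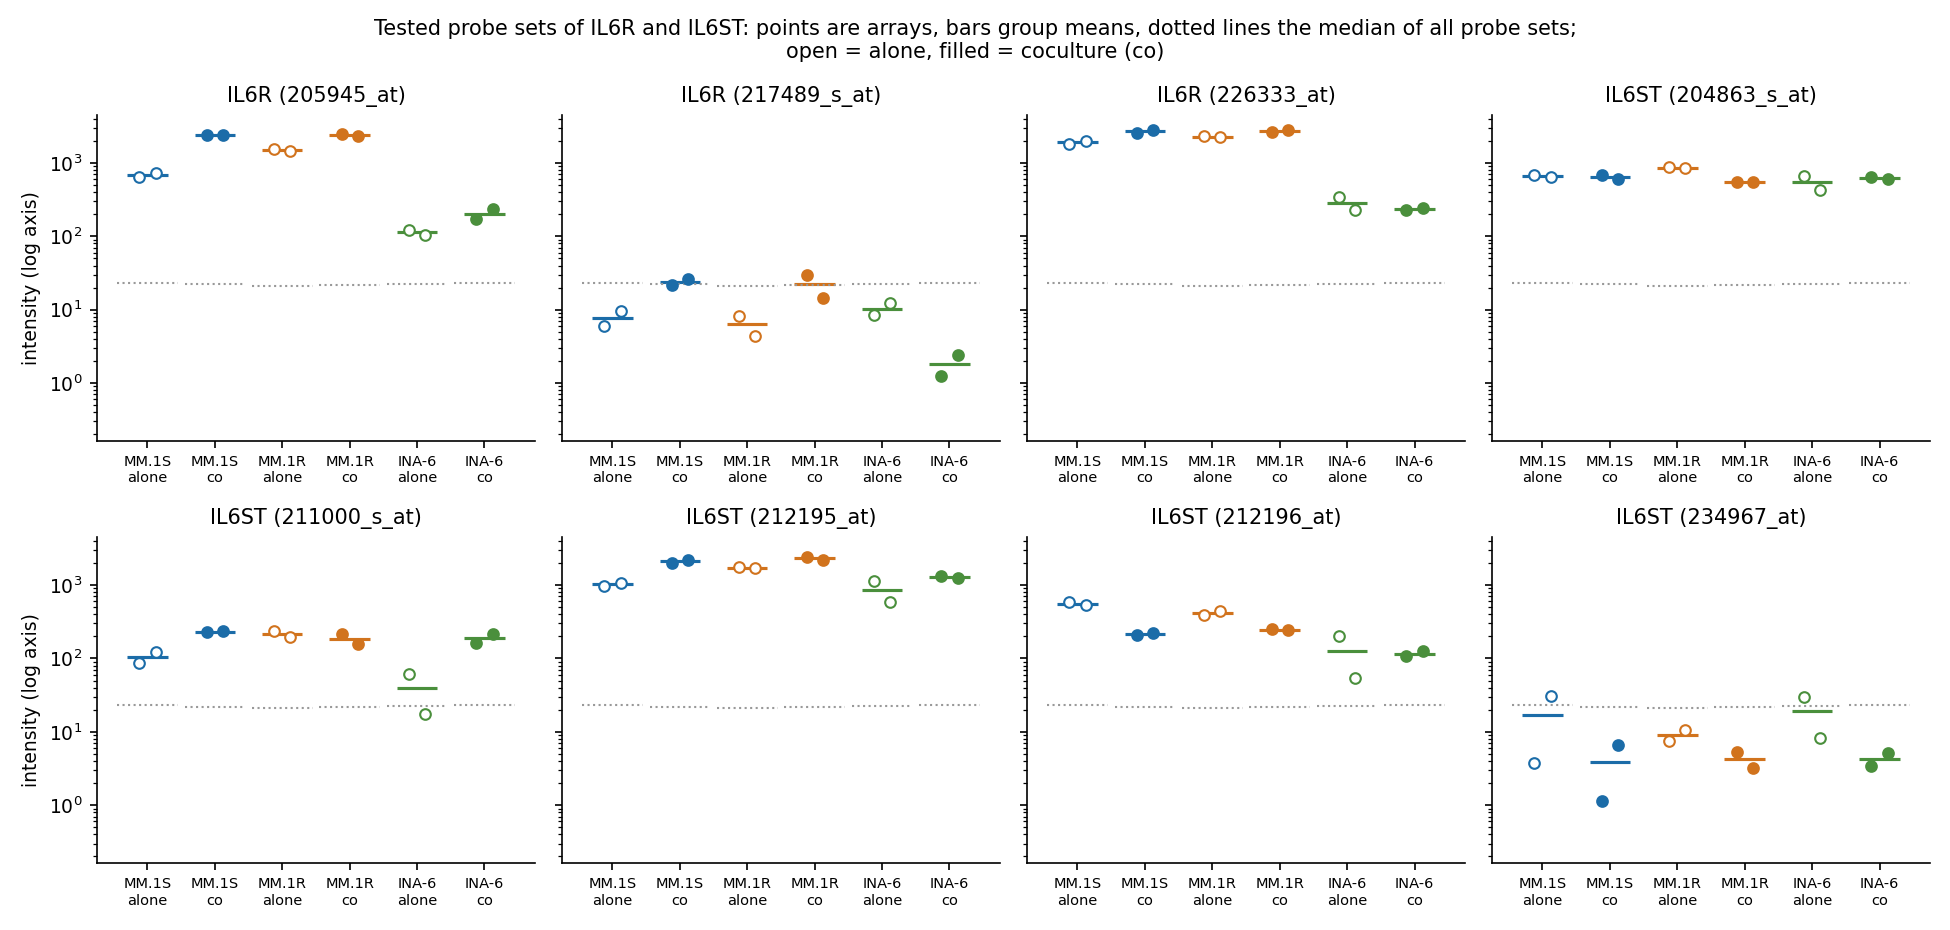
Intensity on each array, on a log axis, for each tested probe set of IL6R and IL6ST. The probe sets 205945_at and 226333_at of IL6R are lower on all INA-6 arrays (105.45 to 346.58) than on any MM.1 array (643.07 to 2847), while 212195_at and 212196_at of IL6ST shift in opposite directions with coculture in MM.1S and MM.1R.

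Counted over the 18 tested probe sets, 4 were called higher and 0 lower in the common test of coculture, namely those of IL6, LIF, IL11 and OSMR named above. Of all 35664 tested probe sets, 1.11% were called higher and 0.0168% lower. Counted from the same fit by the brightest tested probe set of each of 15052 genes, the shares were 1.48% and 0.00664%. A separate fit on those 15052 probe sets called 3.39% of them in either direction (510 genes), and the same 4 member genes. The same 4 probe sets, and no other member, rose at least 2-fold in each of the 3 lines, against 5.47% of all tested that rose and 0.608% that fell by that much. The median change of all tested probe sets was 0.18 in this comparison. Without the filter on low values the calls of LIF (adjusted p = 0.0701), IL11 (0.0555) and OSMR (0.0530) were lost and that of IL6 held. In that test MM.1R and MM.1S, which share an origin, count as separate lines.

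Within lines the background was larger. In MM.1S 7 members were called higher and 0 lower, against 20.4% and 8.98% of all tested. MM.1R had 7 higher and 0 lower, against 10.5% and 3.48%. INA-6 had 8 higher and 3 lower, against 35.2% and 12.5%. After quantile normalization the share of all calls that were higher moved from 69.4% to 57.5% in MM.1S. In MM.1R it moved from 75.1% to 57.1%, and in INA-6 from 73.7% to 60.8%, while the median change of all tested probe sets in INA-6 moved from 0.40 to 0.16.

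**Figure D3:**
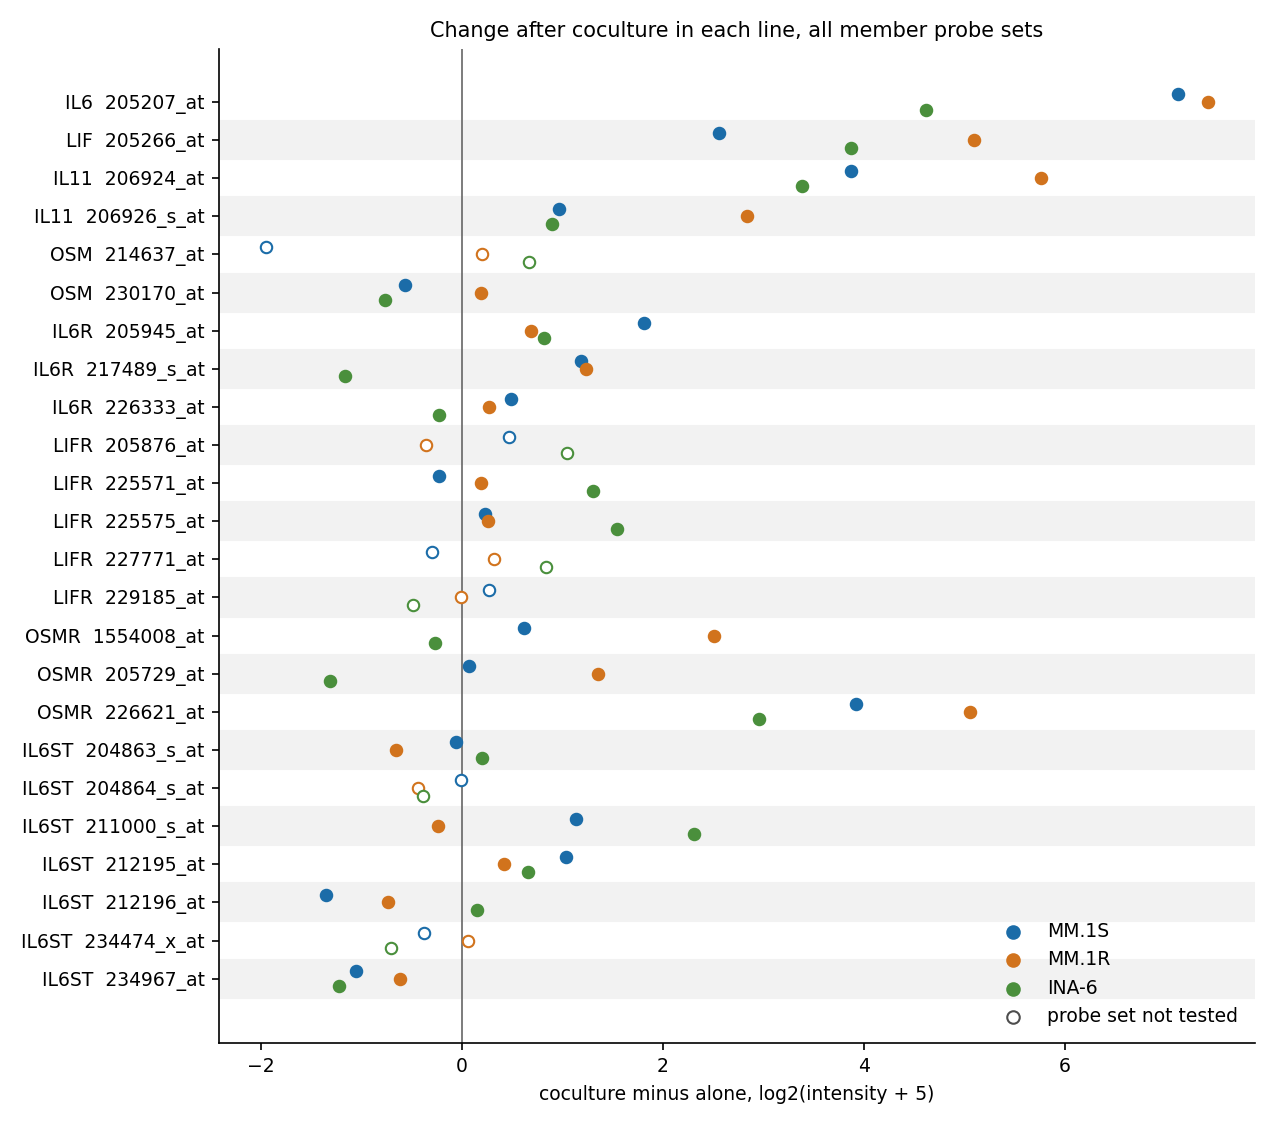
Change with coculture on the log2(value + 5) scale for each of the 24 member probe sets, with 1 point each for MM.1S, MM.1R and INA-6. Open points mark the 6 probe sets that were not tested. The IL6, LIF, IL11 (206924_at) and OSMR (226621_at) probe sets lie above 2.5 in all 3 lines, and the IL6R and IL6ST probe sets lie on both sides of 0.

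INA-6, the line that needs interleukin 6, was set against the mean of the MM.1 lines grown alone. Of the 18 members 3 were higher and 5 lower, against 19% and 32.8% of all tested. The lower ones were 2 probe sets of IL6R and 3 of IL6ST. IL6R differed by -3.11 ± 0.18 at 205945_at (limma adjusted p = 3.37e-06) and by -2.88 ± 0.19 at 226333_at (8.19e-06), and both held under every alternative, from -3.21 to -2.57. IL6ST differed by -2.15 ± 0.42 at 212196_at (0.00277) and by -1.99 ± 0.40 at 211000_s_at (0.00343), which also held, whereas the difference of -0.71 at 212195_at (0.0417) was lost under 14 of 20 alternatives and came to -0.24 (adjusted p = 0.160) without INA-6 alone replicate 2.

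The higher ones in INA-6 alone were IL6 and 2 dim probe sets of OSMR. IL6 was higher by 1.48 ± 0.47 (limma adjusted p = 0.0283), but that rested on array 2 of INA-6 alone, without which the difference was 0.79 (0.225), and it was also lost without MM.1R alone replicate 1 (0.0631) or 2 (0.0558). OSMR was higher by 1.53 ± 0.35 at 205729_at (0.00658) under every alternative. At 1554008_at it was higher by 1.21 ± 0.39 (0.0289), which was lost without MM.1S alone replicate 2 (0.0743), MM.1R alone replicate 1 (0.0725) or INA-6 alone replicate 2 (0.46, adjusted p = 0.183). The ACTB ratio was 5.51 in INA-6 alone against 22.4 and 31.4 in the MM.1 lines alone, and its part in these differences was not tested.

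After coculture, 2 members were higher and 5 lower in INA-6 than in the MM.1 lines, against 8.23% and 11.4% of all tested. IL6R stayed lower, by -3.55 ± 0.18 at 205945_at (limma adjusted p = 8.62e-06), -3.49 ± 0.19 at 226333_at (1.53e-05) and -2.01 ± 0.28 at 217489_s_at (0.00166), and all 3 held under every alternative. For 217489_s_at the difference in cells grown alone was 0.36 ± 0.28 and did not pass (0.315). The ACTB ratio was turned round here, at 32.0 in INA-6 against 5.10 and 5.21 in the MM.1 lines, and its part in these differences was not tested. IL11 was lower by -1.31 ± 0.25 (0.00738) and OSMR at 226621_at by -0.95 ± 0.22 (0.0174), while LIFR was higher by 1.24 ± 0.26 at 225571_at (0.0117) and 1.41 ± 0.31 at 225575_at (0.0136). Without INA-6 coculture replicate 2 these last 4 calls were lost (0.0738, 0.0995, 0.0813 and 0.145). Those of IL11 (0.0584), OSMR (0.142) and LIFR 225571_at (0.101) were lost without replicate 1 as well, and that of OSMR also without either MM.1S coculture array (0.0600 and 0.0511) or MM.1R coculture replicate 2 (0.0518). IL6 differed by -1.18 ± 0.47 (0.123), and no IL6ST probe set passed.

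The effect of coculture itself differed between INA-6 and the mean of the MM.1 lines at 9 members, 3 higher and 6 lower, against 24.1% and 12.8% of all tested. The ligand IL6 rose less in INA-6, by -2.66 ± 0.66 (limma adjusted p = 0.0146), and so did IL11 at 206924_at, by -1.43 ± 0.35 (0.0136), and OSMR at 226621_at, by -1.53 ± 0.31 (0.00565). IL6 was already higher by 1.48 in INA-6 alone, at dim values, where leaving out INA-6 alone replicate 2 left 0.79. After coculture IL6 differed by -1.18, which did not pass (0.123). With coculture the ACTB ratio fell from 22.4 to 5.10 in MM.1S and from 31.4 to 5.21 in MM.1R. It rose from 5.51 to 32.0 in INA-6, and its part in these differences was not tested. The OSMR difference held under every alternative, from -1.70 to -1.31. That of IL6 was lost without INA-6 coculture replicate 1 (0.0510) or 2 (0.0552), and that of IL11 without replicate 2 (0.0597). For LIF the difference was 0.05 ± 0.71 (0.964), whose error is too wide to show that the effects were alike. The other calls were lower in INA-6 at the dim probe sets 205729_at and 1554008_at of OSMR and 217489_s_at of IL6R, and higher at 211000_s_at of IL6ST and at both tested LIFR probe sets, and each of these but 217489_s_at was lost without INA-6 coculture replicate 2 (adjusted p 0.0544 to 0.190).

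Between the MM.1 lines grown alone, 1 member was higher in MM.1R and 0 lower, against 5.81% and 1.14% of all tested. This was IL6R at 205945_at, higher by 1.13 ± 0.20 (limma adjusted p = 0.0162), whose call was lost without MM.1S alone replicate 1 (0.0912) or without MM.1R alone replicate 1 (0.134) or 2 (0.0940). The other bright IL6R probe set, 226333_at, differed by 0.24 ± 0.23 (0.643). After quantile normalization the share of all calls that were higher in MM.1R moved from 83.7% to 70.9%.

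The size of the rises was set beside the stromal markers. Relative to MM.1S coculture, the mean intensity in MM.1R coculture was 1.98 times as high for IL6, 2.61 for LIF, 2.61 for IL11 and 2.50 for OSMR. For the 18 stromal markers that rose at least 2-fold in every line the same ratio ran from 1.15 to 3.34, with a median of 2.29 and all 18 above 1. In INA-6 coculture the ratio to MM.1S was 0.619 for IL6, 0.875 for LIF, 0.642 for IL11 and 0.814 for OSMR, and for the 18 markers it ran from 0.294 to 1.38 with a median of 0.903 and 11 below 1. All 4 members lay inside the range of these 18 markers in both ratios. The 18, of 31 tested, were picked by the same 2-fold rule as the 4 members. Of all tested probe sets 1950 passed that rule, and the others among them were not compared. Whether the range is particular to stromal markers was therefore not tested. COL6A2, a collagen chain of stroma, had the largest common change of those markers, 7.15 ± 0.44 (limma adjusted p = 0.00864). The part of stromal RNA in the rises of IL6, LIF, IL11 and OSMR was not tested, and RNA from HS-5 cells and from myeloma cells cannot be told apart on these arrays.

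**Figure D4:**
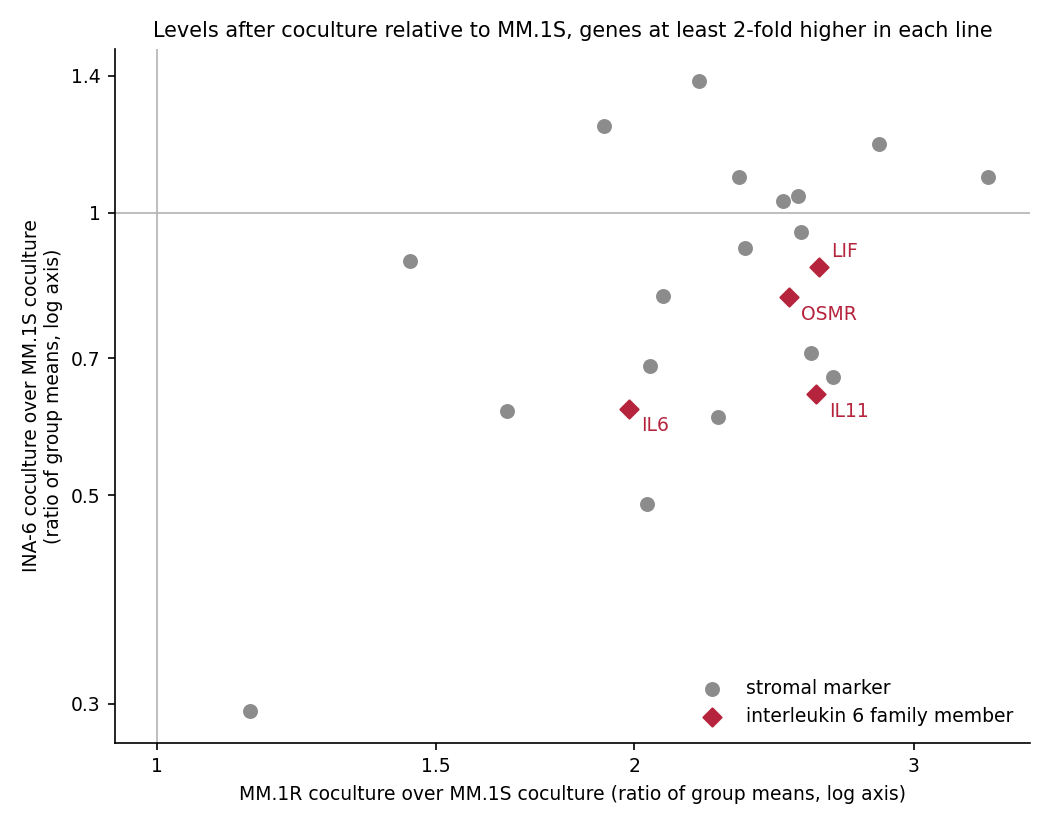
Ratio of mean intensity between coculture groups, on a log axis, for IL6, LIF, IL11 and OSMR and for the 18 stromal markers that rose at least 2-fold in each line, as MM.1R over MM.1S and INA-6 over MM.1S. The 4 members (1.98 to 2.61 and 0.619 to 0.875) lie within the spread of the markers (1.15 to 3.34 and 0.294 to 1.38).

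The rest of the pathway was described by lists of genes, each by its brightest tested probe set, beside a median common change of 0.27 for all genes tested, of which 62.1% lay above 0, 1.48% were called higher and 0.00664% lower. Of the other ligands of the family, 3 of 7 genes were tested and 0 passed in either direction, with a median of -1.05; CNTF, a neurotrophic ligand, changed by -1.31 (limma adjusted p = 0.156) and CTF1, cardiotrophin, by -1.05 (0.318). Of the other receptor chains and the proteases that shed receptors, 5 of 6 were tested and 0 passed, with a median of 0.57. ADAM17, a protease that releases IL6R from the cell surface, changed by 1.01 (0.222) and IL11RA, the alpha chain for interleukin 11, by 0.63 (0.526).

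The relay from the receptor, 11 tested of 12 Janus kinase, STAT and RAS-MAPK adaptor genes, had 0 calls in either direction and a median of 0.70, with 11 of 11 above 0, against 62.1% of all genes. With 1.48% of all genes called higher, 0 calls among 11 does not set the list apart. Its median differed by line, -0.05 in MM.1S, 0.29 in MM.1R and 1.12 in INA-6, against 0.11, 0.09 and 0.47 for all genes. GAB1, an adaptor, changed by -0.33, -0.15 and 4.36 in the 3 lines (common adjusted p = 0.454, limma), and STAT5B by -0.19, 0.25 and 3.14 (0.411). The duplicates of INA-6 alone differed here, with summed intensities of the 11 genes of 2057 and 4116, against 7597 and 7929 in INA-6 coculture. Changes of these genes without either INA-6 alone array are not given here.

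Of 8 feedback inhibitors 0 passed, with a median of 0.88. SOCS3, which binds IL6ST and blocks its kinases, had the largest change of the list, 7.57 in MM.1S, 7.38 in MM.1R and 2.25 in INA-6, and its common change of 5.73 ± 1.01 missed the threshold (limma adjusted p = 0.0609). DUSP6, a phosphatase of the MAPK route, changed by 1.75 (0.108).

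Known targets of the pathway gave 3 rises and 0 falls among 24 tested of 25, with a median of 1.47 and 22 of 24 above 0, against 1.48% called higher, 0.00664% called lower and 62.1% above 0 among all genes. IER3, an early response gene, rose by 5.24 ± 0.47 (limma adjusted p = 0.00959), BCL6, a transcriptional repressor, by 4.43 ± 0.45 (0.0122) and CEBPD, a transcription factor of the acute phase, by 3.69 ± 0.45 (0.0220). Like the members, these genes were measured in the same sorted cells in which stromal markers rose, and the part of stromal RNA in them was not tested.

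The genes most like each member were those with the highest Pearson correlation over the 12 arrays among 15051 other genes, given as a description, since the arrays share 3 lines and 1 contrast. IL6 was most like CDCP1 (0.994), GNG11 (0.993) and HOXC6 (0.992). LIF was most like TM4SF1 (0.987), SMIM3 (0.982) and SNX9 (0.982), and IL11 like IFIT2 (0.997), DKK3 (0.995) and IL13RA2 (0.995). OSMR was most like the host RNA MIR100HG (0.994) and the cytokines IL1B (0.993) and CSF3 (0.992). IL6R, by 226333_at, was most like PHKA1 (0.995), POGLUT2 (0.994) and UCHL1 (0.993), each of which was also far lower in INA-6 than in the MM.1 lines: UCHL1 had means of 1367 and 1496 in MM.1S and MM.1R alone against 45.5 in INA-6 alone. IL6ST, by 212195_at, was most like COMMD4 (0.984), SUMO3 (0.982) and IER3IP1 (0.982). The likeness was weaker for the dim members, with SLC40A1 (0.957), VPS8 (0.949) and MGST2 (0.945) for OSM and PBX4 (0.953), PAN3-AS1 (0.936) and CCDC106 (0.935) for LIFR.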

How the data were processed

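Expression was measured on 12 U133 Plus 2.0 arrays, 2 for each of 6 groups, and the deposited values are intensities per probe set. MAS5 is named per the submitters' processing notes, whereas the authors' design text describes dChip normalization, modelling and averaging of duplicates, so how the deposited intensity values were scaled is not settled. The table gives all 12 arrays separately. Arrays give no counts, so precision is limited by their number.

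The members, lists, tests and alternatives were chosen with earlier results of these data known. Of the probe sets, 41097 were paired with 1 symbol, 1801 with several and 11777 with none, 62 were controls and 1 had a missing value. Values were taken to log2 after adding 5, which understates the change of dim probe sets. Tests took the 35664 probe sets that exceeded their own array's median on 2 or more of 12 arrays. Probe sets of a gene were kept apart.

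Fits used limma 3.58.1 in R 4.3.3. The common effect of coculture was fitted on 6 group means with the line as a block (2 residual degrees of freedom, prior 4.82). All other comparisons came from 1 fit of 12 arrays with a mean per group (6 residual degrees of freedom, prior 2.21). Moderated tests were two-sided, with p-values adjusted by the Benjamini-Hochberg method over all tested probe sets and a threshold of 0.05. The fits were also run on simulated data with the same coculture effect in each line and the spread of the duplicate arrays. Such data cannot show how the common test behaves where effects differ between lines. A value in parentheses after an adjusted p is an adjusted p from limma as well. It comes from the same fit, or from the refit under the alternative that is named with it. Alternatives were pseudocounts of 1 and 16, no filter or a stricter one, quantile normalization, centring on the array median, 1 probe set a gene, arrays not averaged, no INA-6, the replicate number as a block and leaving out each array.

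Named were all member probe sets, up to 3 rises and falls of each list that passed (otherwise the 2 largest changes) and the 3 genes most correlated with each member. Same-numbered arrays were compared over 15 pairs of groups. The correlations of their deviations ran from -0.518 to 0.576, with 6 over 0.1, so the numbers were not taken to pair the samples.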

Additional observations from a re-analysis of the deposited data

Results flagged for a closer look

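The effect of coculture differed between INA-6 and the average effect in the MM.1 lines, by a limma test of the difference itself, at 9 member probe sets. Differences are given on the log2(value + 5) scale, with the adjusted p of the limma fit. IL6 (205207_at) rose less in INA-6, by -2.66 (adjusted p = 0.0146), IL11 (206924_at) by -1.43 (0.0136) and OSMR (226621_at) by -1.53 (0.00565). OSMR 205729_at differed by -2.03 (0.0134), with changes of 0.07 in MM.1S and 1.36 in MM.1R, neither of which passed, and -1.31 in INA-6. The dim IL6R 217489_s_at differed by -2.38 (0.00236), with changes of 1.19, 1.24 and -1.17 in the same order. OSMR 1554008_at differed by -1.84 (0.0302). The change was higher in INA-6 for IL6ST 211000_s_at, by 1.86 (0.0333), and for LIFR 225571_at, by 1.32 (0.0237), and 225575_at, by 1.30 (0.0466). The difference for IL6 holds one of 1.48 in cells grown alone, at dim values, and one of -1.18 after coculture that did not pass. The ACTB ratio fell with coculture in the MM.1 lines and rose in INA-6, and its part in these differences was not tested.

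The calls of OSMR 226621_at and IL6R 217489_s_at held under every alternative. That of IL6 was lost without INA-6 coculture replicate 1 (0.0510) or 2 (0.0552), and that of IL11 without replicate 2 (0.0597). That of OSMR 205729_at was lost without INA-6 coculture replicate 2 (0.0544). Those of OSMR 1554008_at, IL6ST 211000_s_at, LIFR 225571_at and LIFR 225575_at were lost under 8, 9, 5 and 14 alternatives, with adjusted p up to 0.0956, 0.123, 0.0830 and 0.190, and in each of them leaving out INA-6 coculture replicate 2 was among these.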

How the results depend on the processing

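Of 164 counts of called members under an alternative, 138 lay within 1.5 times the value reported, and of 54 calls of single probe sets 25 held under every alternative. Leaving out 1 array ended a call 101 times and other alternatives did so 20 times. For the common effect 4 members became 1 with no filter on low values, 7 with the 12 arrays not averaged and 9 without INA-6. The number of calls among all probe sets also fell with no filter. It rose with the arrays not averaged and without INA-6, in both by a larger factor than the member count. The added member calls therefore do not set the members apart. Without INA-6 the count in MM.1S went from 7 to 12, where calls among all probe sets rose as well, and between the MM.1 lines from 1 to 4. Shares of all tested probe sets are not given here for the counts that follow, which describe the members alone. Leaving out each array in turn gave 4 to 11 members in MM.1S, 4 to 11 in MM.1R (7 reported), 6 to 14 in INA-6 (11), 3 to 11 for the difference in effect (9), 4 to 9 for INA-6 against the MM.1 lines in coculture (7) and 0 to 5 between the MM.1 lines (1).

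Direction turned for OSMR 205729_at, whose common change of 0.04 became -0.013 with a pseudocount of 16, -0.17 after quantile normalization, -0.19 without MM.1S alone replicate 2, -0.04 without MM.1R alone replicate 1 and -0.01 without MM.1R coculture replicate 2. Leaving out each array in turn gave it -0.19 to 0.27, and leaving out INA-6 gave 0.72. Quantile normalization also turned IL6R 226333_at to -0.35 and the INA-6 effect of IL6R 205945_at to -0.0045, and leaving out INA-6 turned LIFR 225571_at to -0.020. The cause was not tested. With the replicate number as a block the counts were 7 in MM.1S, 6 in MM.1R, 11 in INA-6, 8 for the difference in effect, 8 and 7 for INA-6 against the MM.1 lines alone and in coculture, and 1 between the MM.1 lines. A stricter filter (6 of 12 arrays) left 14 members to test, and comparisons with INA-6 have no value without that line. Signal near background limits the dim probe sets of OSM, LIFR and IL11.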
